A study of Mus musculus with 68 samples.

Results

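The 10 transcripts described here are little-studied or little-known in the pharyngeal arches, and each had differed in RNA level between embryos labelled Hoxa2-/- and wildtype mouse embryos in arch 2 (PA2), in an earlier look at the same table. They were taken by symbol: 10 of 21948 gene rows, namely the non-coding transcripts 3110099E03Rik, G630016G05Rik, 8430419K02Rik, E330013P04Rik and AI314278 and the protein-coding genes Tcf24, Tle4, Sytl4, Chst8 and Csn3. Measured values thus chose the members, and no threshold is part of the list. 6 of them were picked on the difference between the label effects of the arches, using E10.5 for Tcf24, Sytl4, 8430419K02Rik and Tle4, using E9.5 for Chst8, and using both E10.0 and E10.5 for 3110099E03Rik. The other 4, Csn3, E330013P04Rik, G630016G05Rik and AI314278, were picked on the difference between the labels in PA2 at E10.0. Values from the libraries that chose a member are given as a description, without a p-value, and tests are given only for libraries that did not choose it.

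RNA-seq was run on arch 1 (PA1) and arch 2 dissected from embryos of the cross CBA/Ca/J x C57BL/10 at embryonic days E9.0 and E9.5, then E10.0, then E10.5. The 68 libraries fall into 16 groups of 3 to 5 (2 arches, wildtype or labelled Hoxa2-/-, 4 stages), from 35 embryos, of which 33 gave both arches. Replicates of a group are different embryos, no allele other than Hoxa2-/- and no treatment is named, and what the Hoxa2-/- allele removes is not given in the sources used here. Each library held 8912251 to 20619153 reads over the genes in the table.

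Pharyngeal arches are bulges at the side of the embryonic throat, filled mostly with neural crest mesenchyme and covered by epithelium. PA1 forms the jaws, and PA2 forms, among other parts, the stapes and part of the hyoid. Hoxa2, a homeobox transcription factor, is made in PA2 and not in PA1 crest, and loss of its function turns PA2 skeletal elements toward a PA1 pattern. Hoxa2 protein binds DNA together with Pbx and Meis homeodomain proteins, and Meis1 and Meis2 encode such partners. Long non-coding RNAs have no known protein product, and many lie beside developmental transcription factor genes.

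The targeted gene went against its label. Hoxa2 RNA in wildtype PA2 averaged 22.3, 40.7, 47.5 and 58.3 CPM (the deposited counts scaled to library size) in order of stage, and PA2 labelled Hoxa2-/- 28.7, 60.7, 97.7 and 132 CPM. RNA was thus not lower under the label, and in limma's moderated test it was higher at the last 2 stages (log2 differences of 1.02, adjusted p = 0.000108, and 1.16, adjusted p = 6.93e-05). Which part of the gene the allele lacks is not known here, so the groups are called by their label throughout. PA1 held at most 0.926 CPM of Hoxa2. A division of the libraries also has to be known before the results: 17 genes lay higher and 2 lower in all 24 wildtype libraries other than those of E10.0 than in all 44 other libraries. Ski, for one, ran from 26.3 to 108 CPM in those 24, from 9.52 to 15.5 in the 10 wildtype libraries of E10.0, and from 9.28 to 22.8 in the 34 labelled Hoxa2-/-. None of the 10 transcripts is among these 19 genes. The label and this division still cannot be told apart at any stage except E10.0, where wildtype libraries sit with the labelled ones. Between labels in PA1, 384, 4343, 0 and 562 of 18428 genes passed in limma (adjusted p under 0.05) in order of stage. In PA2 the same test called 2585, 825, 15 and 1904. The part of the division in these counts was not tested. Markers of other tissues were present at all stages: the summed level of 6 yolk sac and liver markers, for example, ran from 0.662 to 167 CPM and was highest in 3 PA2 libraries (labelled Hoxa2-/- at E10.0 replicate 4 and at E9.0 replicate 3, wildtype at E10.0 replicate 3).

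The 5 non-coding transcripts were placed by GENCODE M21 on mm10, and 2 of them lie within a few kb of a Meis gene. G630016G05Rik, a lincRNA at chr2:116067225-116085911 on the plus strand, begins 1.386 kb from the 5′ end of Meis2, which runs the other way. 3110099E03Rik, a lincRNA at chr2:115493513-115527744 on the minus strand, lies much farther off, 335.32 kb beyond the 3′ end of Meis2, and its nearest annotated neighbour on that side is the antisense transcript Gm13977 at 29.042 kb. 8430419K02Rik, a processed transcript at chr11:18845851-18874309 on the minus strand, lies 5.508 kb beyond the 3′ end of Meis1 on the same strand. AI314278, a lincRNA at chr7:89426306-89441928 on the plus strand, lies 13.172 kb beyond Fzd4, which encodes a Wnt receptor, on the same strand. E330013P04Rik, a lincRNA at chr19:60144675-60162591 on the plus strand, lies between Rab11fip2 (201.021 kb away) and Fam204a (35.995 kb away). Meis1, Meis2 and Fzd4 were singled out after these positions were seen. Whether reads were counted by strand is not given in the sources used here, so G630016G05Rik cannot be told apart from 2 opposite-strand transcripts that overlap it, 2700033N17Rik and 2810405F15Rik.

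**Figure D1:**
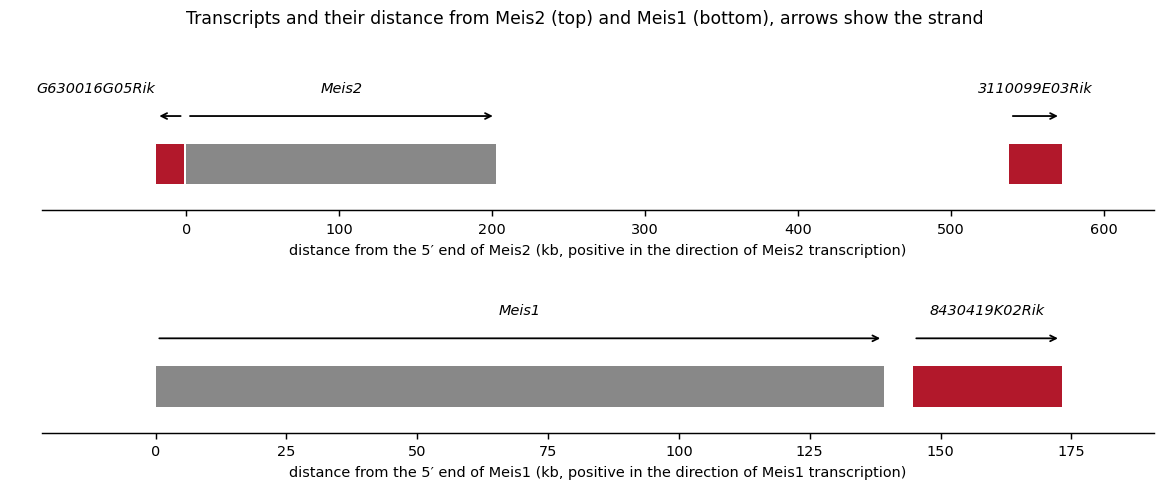
Position of 3 of the transcripts (red bars) relative to Meis2 and Meis1 (grey bars), in kb from the 5′ end of each Meis gene, with positive values in its direction of transcription and arrows for the strand. G630016G05Rik points away from Meis2 at a gap of 1.386 kb, 3110099E03Rik lies 335.32 kb beyond the Meis2 3′ end, and 8430419K02Rik lies 5.508 kb beyond the Meis1 3′ end.

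The promoters of the 4 non-coding transcripts that RefSeq holds are printed because the levels of these transcripts were correlated over the libraries while the base composition at their starts differs. Each is the 300 bases from 250 before to 50 after the RefSeq start (GRCm38.p6), 5′ to 3′ on the transcript's strand, with CG dinucleotides in capitals. The windows are chr2:115512152-115512451 on the minus strand for 3110099E03Rik, chr2:116066975-116067274 on the plus strand for G630016G05Rik, chr11:18877561-18877860 on the minus strand for the first of 3 listed starts of 8430419K02Rik, and chr19:60144425-60144724 on the plus strand for E330013P04Rik.
3110099E03Rik: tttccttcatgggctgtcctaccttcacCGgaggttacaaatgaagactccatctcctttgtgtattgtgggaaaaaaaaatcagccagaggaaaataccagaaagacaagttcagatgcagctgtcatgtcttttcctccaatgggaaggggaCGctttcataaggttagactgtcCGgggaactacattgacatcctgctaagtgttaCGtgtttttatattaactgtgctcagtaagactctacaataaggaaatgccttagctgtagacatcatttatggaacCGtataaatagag
G630016G05Rik: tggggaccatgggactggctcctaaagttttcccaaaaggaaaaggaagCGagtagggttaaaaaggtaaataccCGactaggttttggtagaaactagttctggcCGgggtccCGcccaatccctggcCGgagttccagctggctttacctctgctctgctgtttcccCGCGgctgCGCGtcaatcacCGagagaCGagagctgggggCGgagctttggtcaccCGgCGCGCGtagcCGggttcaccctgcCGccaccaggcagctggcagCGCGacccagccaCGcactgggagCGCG
8430419K02Rik: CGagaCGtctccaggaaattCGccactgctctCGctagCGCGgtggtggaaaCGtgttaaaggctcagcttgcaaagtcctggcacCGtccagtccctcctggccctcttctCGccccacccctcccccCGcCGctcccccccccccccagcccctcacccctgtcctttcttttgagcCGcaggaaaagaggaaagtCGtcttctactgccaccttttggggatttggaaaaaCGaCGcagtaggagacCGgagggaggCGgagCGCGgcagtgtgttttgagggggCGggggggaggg
E330013P04Rik: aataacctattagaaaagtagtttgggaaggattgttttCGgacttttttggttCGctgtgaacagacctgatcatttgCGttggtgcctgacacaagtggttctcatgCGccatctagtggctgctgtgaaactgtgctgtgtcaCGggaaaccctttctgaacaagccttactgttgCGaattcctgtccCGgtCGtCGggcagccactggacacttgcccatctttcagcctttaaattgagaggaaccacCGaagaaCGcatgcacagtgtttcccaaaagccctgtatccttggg

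The 3110099E03Rik window was 41.3% G or C with 5 CG dinucleotides, and that of E330013P04Rik 48.7% with 11. G630016G05Rik held 61.7% and 23, and 8430419K02Rik 63.3% and 20, against medians of 52.7% and 7 (upper quartiles 61.7% and 20) over all 32817 RefSeq promoters of this length. The windows of 3110099E03Rik and 8430419K02Rik do not sit at the GENCODE starts: the former lies inside the GENCODE span and the latter outside it, between that span and the end of Meis1. 7 of the 10 members had a RefSeq promoter. Letters bound by the Hox, Pbx and Meis families were searched on both strands of all 10 listed starts: the Pbx-Hox letters TGATTGAT (in 0.747% of all promoters) and TGATTNAT (3.22%, which includes the former), the Meis letters TGACAG (19.2%) and the homeodomain core TAATTA (5.3%). The only match was TGACAG, read as its reverse complement at bases 123 to 128 of the 3110099E03Rik window.

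Over the tests that did not use the choosing libraries, the calls between labels in PA2 all fell at E10.5 and were all lower under the label. Of the members, only Chst8 could be tested at both E10.0 and E10.5, so the counts by stage are not a time course of the same transcripts. All 10 transcripts passed the filter of at least 1 CPM in at least 3 libraries, Tcf24 and 8430419K02Rik only because of wildtype PA2 at E10.5, where alone their group mean reached 1. In PA2, 3 of 29 member tests passed an adjusted p of 0.05, 0 higher and 3 lower under the label, against 7.23% of all tests of that family over 18428 genes in 4 stages, 3.7% higher and 3.53% lower (limma on log2(CPM + 1), Benjamini-Hochberg over all genes). They were 3 of 5 member tests at that stage, against 10.3% of all genes, with 3.85% lower. At E10.0, 0 of 5 passed in limma or by edgeR, where 0.0814% of all genes passed in limma. By an unadjusted p under 0.05 in limma, 4 of these 5 and 1420 of 18428 genes did. In PA1, 3 of 33 tests passed, all higher under the label, against 7.18% (3.42% higher, 3.75% lower). The median log2 difference of the 5 members tested in PA2 at E10.5 was -0.78, against 1e-05 over all genes, and Csn3 alone was higher (0.66). These members had been picked on label differences at earlier stages and all genes had not, so this median is a description. Differences are on the log2(CPM + 1) scale throughout, which understates changes of transcripts near or below 1 CPM, and 3 reads were worth at most 0.328 CPM. In bulk tissue, fewer cells of a type and less RNA per cell cannot be told apart.

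**Figure D2:**
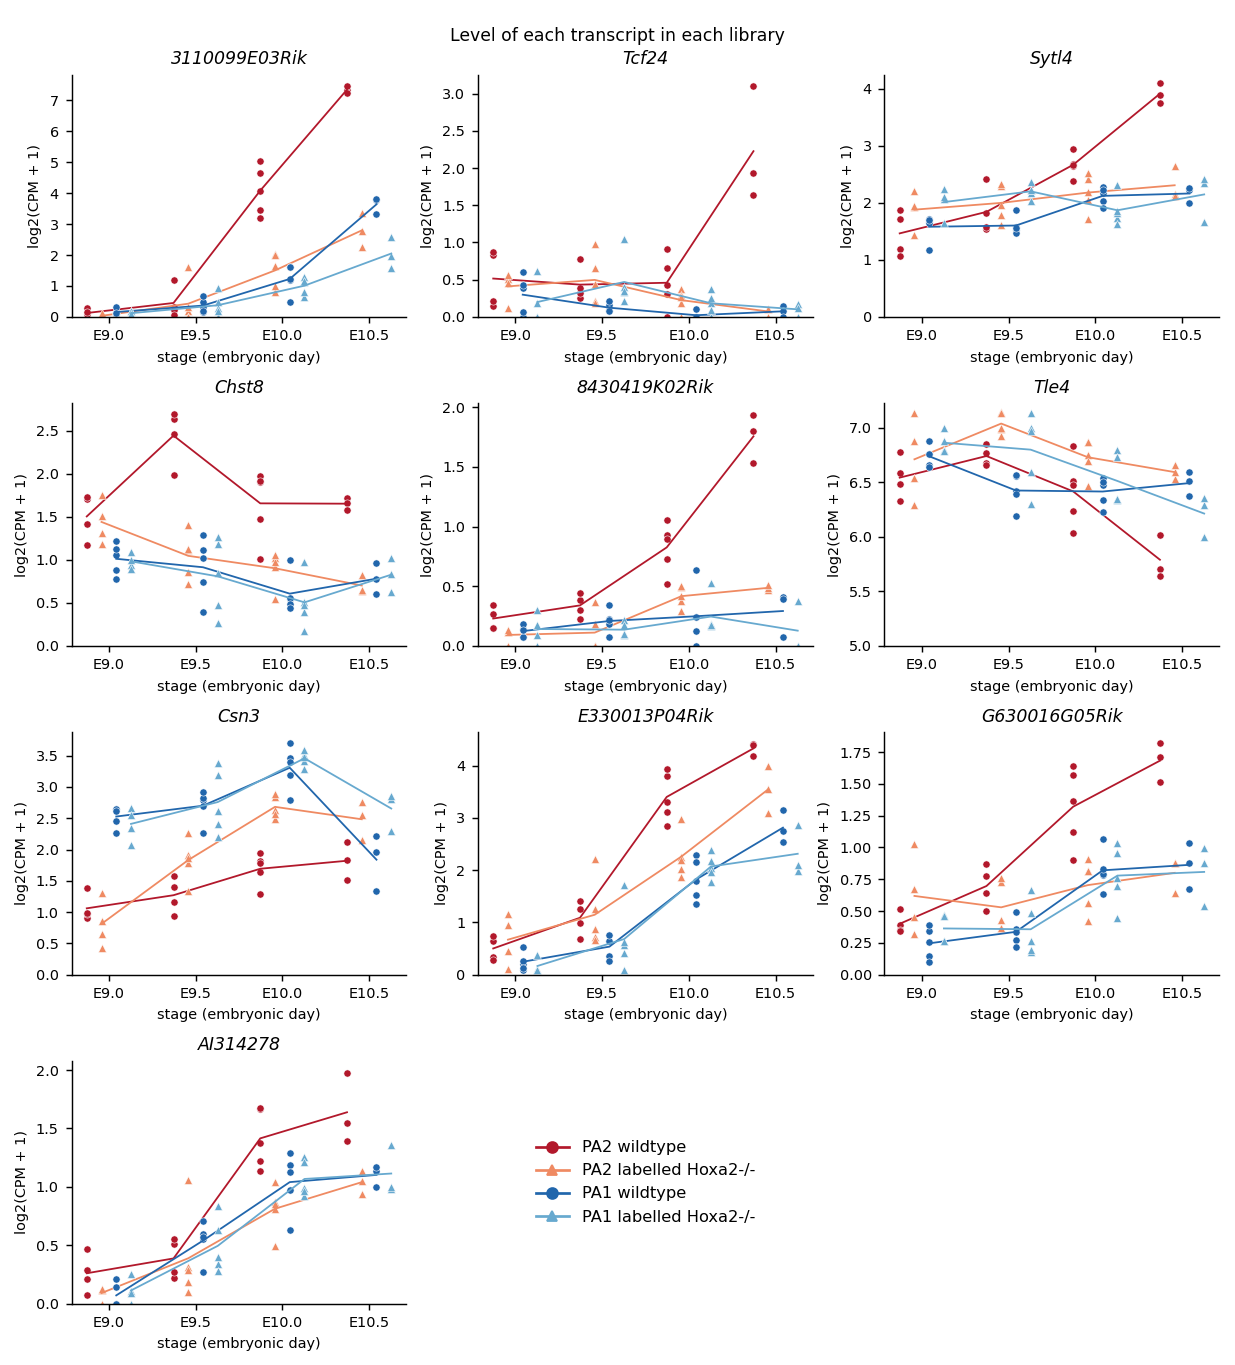
Level of each of the 10 transcripts in each of the 68 libraries, as log2(CPM + 1), by stage. Circles are wildtype and triangles are labelled Hoxa2-/-, red shades are PA2 and blue shades PA1, lines join group means, and the Tle4 axis starts at 5. In 3110099E03Rik the 3 wildtype PA2 libraries of E10.5, at 149.5 to 176 CPM, lie above all others, while Csn3 lies higher in PA1 than in PA2 of wildtype until E10.0.

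3110099E03Rik was a late wildtype PA2 transcript: near 0 until E9.5 and high in that arch at E10.5. Wildtype PA2 libraries held 0.206, 0, 0.0552 and 0.108 CPM at E9.0, 0.233, 0.165, 0.0508 and 1.30 at E9.5, then 31.7, 8.16, 24.2, 10.0 and 15.9 (E10.0) and 162, 176 and 149.5 (E10.5). Under the Hoxa2-/- label, PA2 held 0.748, 3.09, 3.02, 2.13 and 1.02 CPM at E10.0, then 9.23, 3.76 and 5.89 (E10.5). These groups do not overlap at either stage, and the values at both stages are those that chose the transcript (log2 differences of -2.58 and -4.55, where 0.57% and 15.1% of all genes were lower without overlap). PA1 also held more at E10.5 than before, with 12.6, 13.2 and 9.06 CPM in wildtype and 4.99, 2.94 and 2.00 under the label. The labels again do not overlap, as for 14.4% of all genes in that direction in PA1. At E9.0 and E9.5, which did not choose it, PA2 under the label averaged 0.0231 ± 0.0462 (SD, n = 4) and 0.493 ± 0.895 CPM (n = 5), against 0.0923 ± 0.0877 (n = 4) and 0.436 ± 0.578 (n = 4) in wildtype, and no difference passed the test. At those stages 5 of 8 wildtype and 8 of 9 labelled PA2 libraries held 3 reads or fewer, so a difference was not detectable at this depth. One embryo labelled Hoxa2-/- at E9.5, replicate 4, held 2.08 CPM in PA2 and 0.913 in PA1, the highest of its group in both arches.

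G630016G05Rik, the divergent neighbour of Meis2, was chosen at E10.0 and fell again under the label at E10.5. At E10.0 wildtype PA2 held 1.58, 0.870, 1.97, 1.18 and 2.11 CPM and labelled PA2 0.476, 0.756, 0.755, 0.883 and 0.339, so that the highest labelled library lies above the lowest wildtype one. At E10.5, in other embryos, the values were 1.86, 2.53 and 2.27 CPM in wildtype and 0.839, 0.560 and 0.841 under the label. These groups do not overlap, as for 15.1% of all genes in that direction. The E10.5 difference of -0.88 ± 0.16 (log2, SE) passed the test (adjusted p = 0.000163). Wildtype PA2 exceeded wildtype PA1 at E10.5, where PA1 held 0.599, 1.05 and 0.833 CPM (0.82 ± 0.16, adjusted p = 0.000788). At E9.5 the arches differed less, at 0.628 ± 0.179 (n = 4) against 0.266 ± 0.0944 CPM (n = 5), and the adjusted p of 0.039 rose to between 0.0514 and 0.115 without any one of 6 libraries (PA1 replicates 1, 4 and 5, PA2 replicates 1, 2 and 3) and to 0.0761 with a pseudocount of 5. No arch difference passed under the label, where the values at E10.5 were 0.747 ± 0.162 CPM in PA2 and 0.766 ± 0.278 in PA1 (n = 3 each). Over the stages, E10.5 against E9.0, the transcript rose in wildtype PA2 (1.28 ± 0.15, adjusted p = 8.7e-10) and wildtype PA1 (0.62 ± 0.15, adjusted p = 0.000453). Its overlapping opposite-strand neighbour 2700033N17Rik lay at 4.05 ± 0.643 CPM in wildtype PA2 and 2.50 ± 0.483 in labelled PA2 at E10.5 (n = 3 each), and the difference of -0.53 missed the threshold (adjusted p = 0.0878).

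8430419K02Rik, beyond the Meis1 end, was likewise a wildtype PA2 transcript, at low level. It was chosen at E10.5, where wildtype PA2 held 2.48, 1.90 and 2.83 CPM, labelled PA2 0.381, 0.400 and 0.421, and PA1 at most 0.327 in either label. At E10.0, in libraries that did not choose it, wildtype PA2 held 1.08, 0.435, 0.655, 0.902 and 0.861 CPM and labelled PA2 0.408, 0.412, 0.227, 0.294 and 0.339. These E10.0 groups do not overlap, as for 0.57% of all genes in that direction, yet the difference of -0.41 ± 0.10 missed the threshold (adjusted p = 0.0774) and passed without wildtype replicate 2 (-0.49, adjusted p = 0.0147), with a pseudocount of 5 (adjusted p = 0.0402) and without the filter (adjusted p = 0.0496). Against wildtype PA1 at E10.0, with 0.182, 0.549, 0, 0.0911 and 0.180 CPM, wildtype PA2 was higher (0.58 ± 0.10, adjusted p = 1.575e-05), although 1 PA1 library lies above the lowest PA2 one. Under the label the same arch comparison gave 0.17 ± 0.10 (adjusted p = 0.372).

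Meis1 and Meis2 themselves were lower under the label in PA2. Meis2 averaged 120, 144, 160 and 175 CPM in wildtype PA2 at the 4 stages in order and 109, 118, 115 and 111 under the label. Its differences of -0.28 at E9.5 (adjusted p = 0.00386), -0.47 at E10.0 (adjusted p = 6.28e-07) and -0.66 at E10.5 (adjusted p = 1.23e-08) passed, and those in PA1 did not. The label effect on Meis2 also differed between the arches at E10.0 (-0.49, adjusted p = 0.00129) and E10.5 (-0.87, adjusted p = 1.01e-06). That on Meis1 did not differ between the arches in a way that passed at any stage. It came nearest at E9.5 (-0.96, adjusted p = 0.0538), and E10.5 gave -0.74 (adjusted p = 0.915). Meis1 averaged 139, 159, 186 and 267 CPM in wildtype PA2 and 104, 99.1, 136 and 146 under the label, and passed at E9.5 (-0.69, adjusted p = 0.00178) and E10.5 (-0.88, adjusted p = 0.000411) but not at E10.0 (-0.45, adjusted p = 0.377). Its E10.0 groups nevertheless do not overlap, as for 0.57% of all genes in that direction. Over the 68 libraries, Pearson's r of log2(CPM + 1) with Meis2 and Meis1 in that order was 0.38 and 0.63 for G630016G05Rik. It was 0.42 and 0.59 for 3110099E03Rik, and 0.62 and 0.63 for 8430419K02Rik. Whether the neighbours and the Meis genes share any control was not tested.

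E330013P04Rik rose with stage in both arches and stood higher in PA2. Wildtype PA2 held 0.566, 0.267, 0.662 and 0.216 CPM at E9.0 and 17.1, 20.4 and 20.01 at E10.5 (3.83 ± 0.29, adjusted p = 1.15e-15), and wildtype PA1 went from 0.193 ± 0.145 (n = 5) to 6.14 ± 1.54 CPM (n = 3, 2.57 ± 0.28, adjusted p = 6.49e-11). Labelled PA2 followed that course, going from 0.655 ± 0.523 (n = 4) to 11.1 ± 3.73 CPM (n = 3, 2.88 ± 0.29, adjusted p = 2.17e-11). At E10.0, which chose it, wildtype PA2 held 12.9, 8.92, 14.3, 7.71 and 6.18 CPM and labelled PA2 3.74, 6.87, 2.64, 3.60 and 3.05, where labelled replicate 2 lies above 1 wildtype library. At E10.5 labelled PA2 held 14.9, 10.8 and 7.50 CPM. These lie below all 3 wildtype libraries, as for 15.1% of all genes in that direction, and the difference of -0.78 ± 0.31 missed the threshold (adjusted p = 0.103). It passed with a pseudocount of 5 (-0.61, adjusted p = 0.00474) and when only the compared groups were fitted (adjusted p = 0.0392). PA2 exceeded PA1 at E10.5 in wildtype (1.52 ± 0.31, adjusted p = 0.00147) and under the label, where PA1 held 6.32, 2.94 and 3.27 CPM (1.23 ± 0.31, adjusted p = 0.0227). In wildtype PA2 over PA1 at E9.5 gave 0.55 (adjusted p = 0.106), and passed with the embryo as a block (0.56, adjusted p = 0.0425) and with only the compared groups (adjusted p = 0.0393). Under the label at E9.0 the arches gave 0.50 (adjusted p = 0.176), with 6 reads in all in PA1. That E9.0 comparison passed by edgeR (2.44, adjusted p = 0.0398) and with a pseudocount of 0.25 (1.09, adjusted p = 0.0465). The labelled E10.5 call was lost without PA1 replicate 2 or 3 or PA2 replicate 1 or 2 (adjusted p 0.0912 to 0.253), by edgeR on the recovered reads (adjusted p = 0.174) and with only the compared groups (adjusted p = 0.0776). With a pseudocount of 0.25 both E10.5 arch calls were lost (adjusted p = 0.0763 in wildtype and 0.187 under the label). Of the neighbours of E330013P04Rik, Rab11fip2 (-0.49, adjusted p = 0.107) and Fam204a (-0.05, adjusted p = 0.8635) did not pass between labels in PA2 at E10.5.

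AI314278, the Fzd4 neighbour, followed a similar course at lower CPM. Wildtype PA2 held 0.0515, 0.160, 0.221 and 0.379 CPM at E9.0 and 1.91, 1.63 and 2.94 at E10.5 (1.38 ± 0.16, adjusted p = 4.59e-10), and each of the other 3 arch and label series also rose over this span (0.95 to 1.03 on the log2 scale, adjusted p at most 4.31e-06). In wildtype PA1 part of the rise came by E9.5, from 0.0517 ± 0.0728 to 0.460 ± 0.157 CPM (n = 5 each, 0.47 ± 0.13, adjusted p = 0.0246), a call that was lost without E9.0 replicate 2, 4 or 5 or E9.5 replicate 1 (adjusted p 0.0508 to 0.076) and with a pseudocount of 5 (adjusted p = 0.0878). At E10.0, which chose it, PA2 held 1.33, 1.20, 2.18, 1.60 and 2.19 CPM in wildtype and 0.748, 0.825, 1.06, 0.809 and 0.407 under the label. These groups do not overlap, as for 0.57% of all genes in that direction. At E10.5 the labelled libraries held 1.07, 1.20 and 0.911 CPM, again below all wildtype ones, as for 15.1% of all genes in that direction. The difference of -0.60 ± 0.17 passed (adjusted p = 0.0156) but did not without wildtype replicate 3 (-0.43, adjusted p = 0.155) or labelled replicate 3 (-0.55, adjusted p = 0.0759), nor by edgeR (-1.02, adjusted p = 0.134), with a pseudocount of 0.25 (adjusted p = 0.0973) or with only the compared groups (adjusted p = 0.0579). PA2 over PA1 in wildtype at E10.5 gave 0.54 ± 0.17 (adjusted p = 0.124) and passed with the embryo as a block (adjusted p = 0.0282) and with a pseudocount of 5 (adjusted p = 0.0167). Fzd4 next to it lay at 95.3 to 135 CPM in wildtype PA2 and 48.2 to 63.0 in labelled PA2 at E10.5 (-1.02, adjusted p = 0.00198). At E10.0 Fzd4 gave -0.34 in PA2 (adjusted p = 0.66). Its label effect did not differ between the arches at E10.5 in a way that passed (-0.98, adjusted p = 0.915). Prss23, on the other side of AI314278, gave -0.55 in PA2 at E10.5 (adjusted p = 0.0684).

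**Figure D3:**
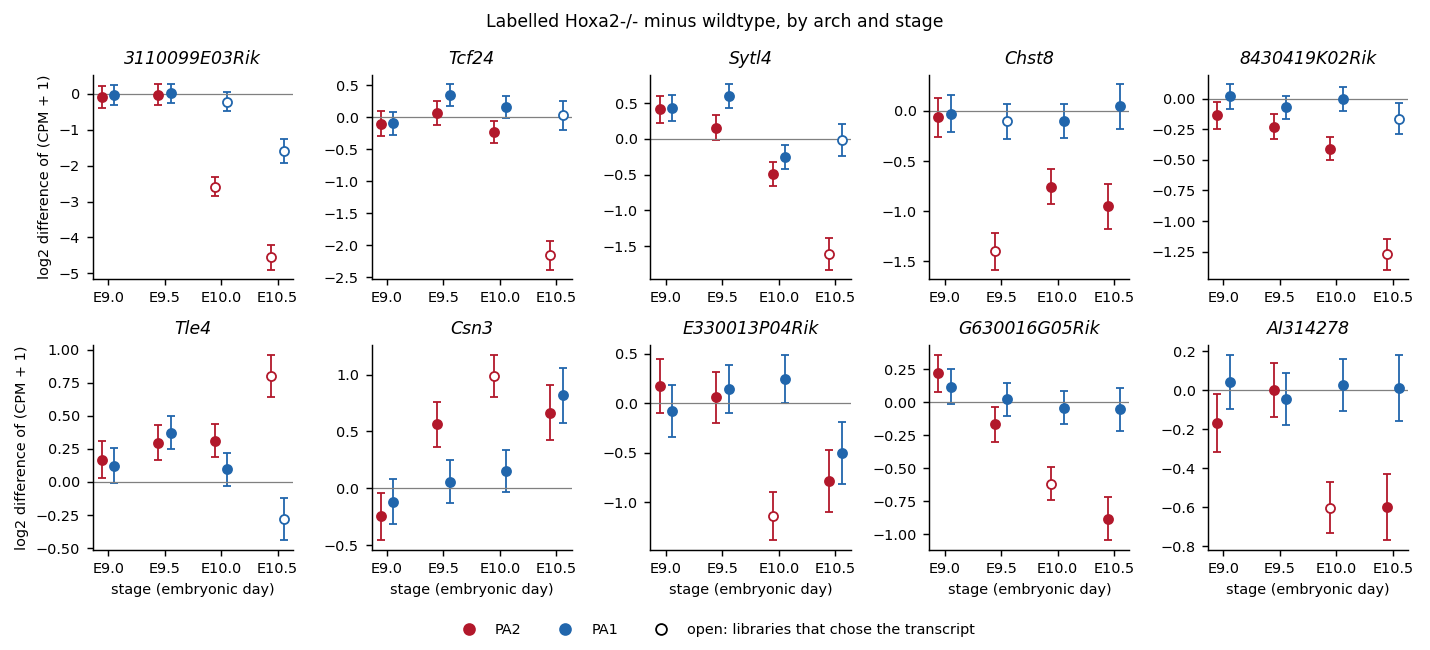
Log2 difference of (CPM + 1), labelled Hoxa2-/- minus wildtype, for each transcript by stage in PA2 (red) and PA1 (blue). Points are fitted differences and bars 1 standard error, and open points mark libraries that chose the transcript and carry no test. At E10.5 the PA2 points of 8 transcripts lie between -4.55 and -0.60, and those of Tle4 (0.80) and Csn3 (0.66) above 0.

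Tcf24 encodes a little-known basic helix-loop-helix transcription factor and was detected above 1.06 CPM in 3 libraries alone. These were the wildtype PA2 libraries of E10.5, at 2.12, 7.59 and 2.83 CPM, which chose it. Labelled PA2 at that stage held 0.0763, 0.0800 and 0 CPM, 2 reads in all, and PA1 at most 0.131. The 3 wildtype libraries differ among themselves: the log2 difference of -2.15 becomes -1.72 without replicate 2 and -2.45 without replicate 1. At the other 3 stages group means ran from 0.0157 to 0.467 CPM and no comparison between labels or arches passed in limma with the pseudocount of 1. PA2 over PA1 in wildtype at E10.0 (0.44, adjusted p = 0.136) passed with a pseudocount of 0.25 (1.14, adjusted p = 0.0463) and by edgeR on the recovered reads (4.12, adjusted p = 0.0226), and edgeR also called the label in PA1 at E9.5 (2.18, adjusted p = 0.0435). Of the 8 other Twist- and Tcf21-like genes tested, 0 passed between labels in PA2 at E10.5 in limma or by edgeR, and 1 had an unadjusted p under 0.05 (median log2 difference -0.02 against 1e-05 over all genes). Tcf21, a regulator of arch muscle precursors, was higher in PA2 than in PA1 of wildtype at every stage (1.42, 1.21, 1.77 and 2.13 in order of stage).

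Tle4, a Groucho-type co-repressor that transcription factors such as Hes proteins recruit, was the one transcript present at 48.9 CPM or more in every library. It was chosen at E10.5, where wildtype PA2 held 51.2, 63.8 and 48.9 CPM and labelled PA2 91.3, 95.2 and 99.97, with no overlap, as for 18.6% of all genes in that direction. In PA1 of that stage the order was the reverse, 81.9, 89.8 and 95.6 CPM in wildtype and 77.1, 80.6 and 62.9 under the label, also without overlap, as for 14.4% of all genes in that direction. Before E10.5, in libraries that did not choose it, the label made no difference in PA2 that passed: wildtype held 92.7 ± 12.3 CPM (n = 4), 106 ± 6.42 (n = 4) and 85.8 ± 18.1 (n = 5) at the first 3 stages in order, and labelled PA2 106 ± 27.4 (n = 4), 130.5 ± 9.06 (n = 5) and 105.5 ± 11.8 (n = 5) in the same order. The E9.5 ranges do not overlap, as for 4.46% of all genes in that direction (adjusted p = 0.203, and 0.0469 with only the compared groups). All 3 differences were positive, at 0.17, 0.30 and 0.31 on the log2 scale. PA1 at E9.5 passed, with 112.7 ± 25.3 CPM under the label and 85.2 ± 8.86 in wildtype (n = 5 each, 0.37 ± 0.13, adjusted p = 0.0236), in ranges that overlap. That call was lost without wildtype replicate 3 or labelled replicate 1, 2 or 5 (adjusted p 0.0636 to 0.105) and with only the compared groups (adjusted p = 0.123). PA2 over PA1 in wildtype at E9.5 gave 0.32 (adjusted p = 0.0698), and passed with the embryo as a block (0.31, adjusted p = 0.0367) and with only the compared groups (adjusted p = 0.0346). Of the 9 other Groucho and Hes genes tested in PA2 at E10.5, Hey1, a Notch target, was higher under the label (0.94, adjusted p = 0.000975) and Aes, a Groucho-related gene, lower (-0.84, adjusted p = 0.000586), against 10.3% of all genes passing, and the median of the 9 was 0.10.

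Sytl4, or granuphilin, binds Rab27 on secretory granules. It was chosen at E10.5 with 16.1, 13.9 and 12.4 CPM in wildtype PA2 against 3.43, 5.28 and 3.37 under the label. PA1 of both labels held 2.18 to 4.38 CPM, so that wildtype PA2 stood alone. In PA2 at that stage, 15.1% of all genes were lower under the label without overlap. At E10.0 wildtype PA2 held 5.45, 4.24, 5.24, 5.35 and 6.73 CPM and wildtype PA1 3.09, 3.53, 3.84, 2.73 and 3.66, without overlap, as for 4.1% of all genes in that direction. That arch difference of 0.55 ± 0.17 passed at an adjusted p of 0.0396, which rose to between 0.0536 and 0.129 without any one of 8 libraries (PA1 replicates 1, 2, 4 and 5, PA2 replicates 1, 3, 4 and 5) and was 0.0592 by edgeR and 0.0614 with a pseudocount of 0.25. Labelled PA2 at E10.0 held 4.35, 3.16, 3.55, 2.28 and 4.75 CPM, overlapping wildtype, and -0.49 ± 0.17 did not pass (adjusted p = 0.484). In PA1 at E9.5 Sytl4 was higher under the label, 3.50, 3.08, 4.16, 3.65 and 3.67 CPM against 1.87, 2.68, 1.98, 1.76 and 1.96 (0.60 ± 0.17, adjusted p = 0.00764), a comparison in which 23.6% of all genes passed. In PA2 at E9.0 the label gave 0.42 (adjusted p = 0.137), and 0.56 (adjusted p = 0.0385) without the 3 libraries highest in yolk sac markers. Of the 5 other Rab27 genes and partners tested, 0 passed between labels in PA2 at any stage in limma or by edgeR (2 had an unadjusted p under 0.05, both at E10.5). Sytl2, a second synaptotagmin-like protein, was higher in PA2 than PA1 of wildtype at the first 3 stages (1.04 ± 0.25, 1.20 ± 0.25 and 1.05 ± 0.24 in order, adjusted p = 0.0021, 0.000406 and 0.00221), while E10.5 gave 0.05 ± 0.31 (adjusted p = 1).

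Chst8, an N-acetylgalactosamine-4-O-sulfotransferase that caps the sugar chains of glycoprotein hormones, was highest in wildtype PA2 at E9.5. It was chosen at E9.5, with 5.23, 5.46, 2.95 and 4.51 CPM in wildtype PA2, 1.65, 0.817, 1.16, 0.647 and 1.18 under the label, and 0.204 to 1.44 in PA1 of both labels. Wildtype PA2 stood above all 3 other groups in these choosing libraries, and the share of all genes that do so was not counted. In the later libraries, which did not choose it, wildtype PA2 held 1.77, 2.94, 2.73, 2.78 and 1.02 CPM at E10.0, then 2.28, 2.16 and 2.00 (E10.5). Labelled PA2 held 0.884, 1.03, 0.453, 0.956 and 1.09 CPM at E10.0, which overlaps wildtype in the single wildtype library at 1.02, and 0.763, 0.560 and 0.561 at E10.5, which does not overlap. At E10.5, 15.1% of all genes were lower in PA2 without overlap. The E10.5 difference passed (-0.95 ± 0.22, adjusted p = 0.0028) and the E10.0 difference missed the threshold (-0.75 ± 0.17, adjusted p = 0.0547), passing with a pseudocount of 5 (adjusted p = 0.0195), without the filter (adjusted p = 0.0496), with median-of-ratios scaling (adjusted p = 0.0486) and without wildtype replicate 5 (-0.92, adjusted p = 0.00624). Against wildtype PA1, wildtype PA2 was higher at E10.0 (1.05 ± 0.17, adjusted p = 1.2e-05) and at E10.5 (0.87 ± 0.22, adjusted p = 0.0204). The E10.5 arch call was lost without PA1 replicate 1 or 3 or any of the 3 PA2 libraries (adjusted p 0.0552 to 0.159) and with a pseudocount of 0.25 (adjusted p = 0.0536). At E9.0 PA2 held 1.87 ± 0.514 CPM (n = 4) and PA1 1.03 ± 0.248 (n = 5) in wildtype (0.49 ± 0.18, adjusted p = 0.0496), a call lost without any one of 7 libraries (PA1 replicates 1 to 4, PA2 replicates 1, 2 and 4, adjusted p 0.0525 to 0.158), by edgeR (adjusted p = 0.0556), without the filter (adjusted p = 0.0544) and with a pseudocount of 0.25 (adjusted p = 0.0903). The labelled arches at E9.0 gave 0.46 ± 0.19 (adjusted p = 0.0738), which passed with the embryo as a block (adjusted p = 0.0368). Labelled PA2 then fell from 1.74 ± 0.478 CPM at E9.0 (n = 4) to 0.628 ± 0.117 at E10.5 (n = 3, -0.74 ± 0.21, adjusted p = 0.00453). Of the 5 other enzymes of the family tested between labels in PA2, 1 passed at E10.5, where 10.3% of all genes did: Chst11, a chondroitin 4-sulfotransferase, was lower under the label (-0.69, adjusted p = 0.0238). At E9.0 1 passed, where 14% of all genes did: Chst12, another chondroitin 4-sulfotransferase, was higher (0.57, adjusted p = 0.0123). Kctd15, a neighbour 17.736 kb from Chst8, went the other way and was higher under the label in PA2 at E10.5 (0.68, adjusted p = 0.00968). Pepd, on the other side of Chst8, gave -0.03 there (adjusted p = 0.893).

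Csn3 encodes kappa-casein, a secreted milk protein, and was a PA1 transcript until E10.0. At E9.0 wildtype PA1 held 5.28, 4.50, 3.79, 5.25 and 5.15 CPM and wildtype PA2 0.875, 0.962, 1.60 and 0.974 (-1.47 ± 0.20, PA2 minus PA1, adjusted p = 1.14e-07). The labelled arches gave the same order at E9.0, with 3.21, 5.36, 4.08 and 4.86 CPM in PA1 and 0.341, 0.821, 0.568 and 1.48 in PA2 (-1.60 ± 0.21, adjusted p = 5.53e-08), where 24.6% of all genes passed. At E9.5 wildtype gave -1.43 ± 0.20 (adjusted p = 3.09e-07) and the labelled embryos -0.93 ± 0.19 (adjusted p = 0.000372), the latter with overlapping ranges. PA2 held more under the label at E10.0, which chose Csn3, with 4.63, 6.12, 5.21, 4.93 and 6.38 CPM against 1.46, 2.83, 2.51, 2.43 and 2.11, without overlap, as for 1.64% of all genes in that direction. PA1 held 5.91 to 12.1 CPM in wildtype and 8.79 to 11.1 under the label. By E10.5 the arches no longer differed in a way that passed, since wildtype PA1 held 2.89, 1.53 and 3.64 CPM and wildtype PA2 3.36, 1.84 and 2.55. Under the label PA1 was then higher, with 3.91, 6.01 and 6.26 CPM (0.82 ± 0.24, adjusted p = 0.046), where 3.05% of all genes passed. Labelled PA2 held 3.43, 5.76 and 4.84 CPM, and its difference of 0.66 ± 0.24 missed the threshold (adjusted p = 0.0684). Neither pair of groups overlaps, as for 14.4% of all genes in that direction in PA1 and 18.6% in PA2. The PA1 call was lost without wildtype replicate 1 or 2 or labelled replicate 2 or 3 (adjusted p 0.105 to 0.348), by edgeR (adjusted p = 0.0673), with a pseudocount of 0.25 (0.065), without the filter (0.0518) and with only the compared groups (0.0959), and the PA2 difference passed without labelled replicate 1 (0.83, adjusted p = 0.0436).

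In order of stage, Csn3 averaged 4.79, 5.57, 9.12 and 2.69 CPM in wildtype PA1 and 1.10, 1.44, 2.27 and 2.59 in wildtype PA2. It thus averaged more at E10.0 than at E9.0 in both arches, across the library division. Only from the first to the last stage did Csn3 move in opposite directions in the wildtype arches. At E10.5 against E9.0 it fell in PA1 (-0.69 ± 0.22, adjusted p = 0.0078, but -0.44 and adjusted p = 0.153 without E10.5 replicate 2) and rose in PA2 (0.76 ± 0.23, adjusted p = 0.00615, but 0.61 and adjusted p = 0.0634 without E10.5 replicate 1). In labelled PA2 it rose from 0.802 ± 0.491 (n = 4) to 4.68 ± 1.17 CPM (n = 3, 1.67 ± 0.23, adjusted p = 3.99e-08), and had already risen by E9.5 (1.02 ± 0.20, adjusted p = 0.000368, but 0.122 when only the compared groups were fitted). From E9.5 to E10.5 wildtype PA2 gave 0.55 (adjusted p = 0.0523), which passed with the embryo as a block (adjusted p = 0.0467) and by edgeR (adjusted p = 0.026). Csn3 was the only one of 7 listed casein-cluster genes in the table. Epithelial markers were present in every group: the summed CPM of Epcam, Krt8, Krt18, Krt14, Trp63 and Cdh1 in PA2 at E10.0 ran from 506 to 657 in wildtype and from 390 to 649 under the label, and at E10.5 from 331 to 376 and from 348 to 416.

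Across arches, more member tests passed in wildtype than under the label, but the difference of the label effects itself did not pass for any member outside the libraries that chose it. In wildtype, 10 of 29 member tests of PA2 against PA1 passed, 8 higher and 2 lower in PA2, against 13.1% of all tests of that family (7.06% higher, 6.07% lower). Stage by stage these were 2 of 10 at E9.0 (18.7% of all genes passed), 2 of 9 at E9.5 (26.3%), 3 of 5 at E10.0 (5.94%) and 3 of 5 at E10.5 (1.52%). Under the label 3 of 29 passed, 1 higher and 2 lower, against 9.94% (5.58% higher, 4.35% lower). Those were 1 of 10 at E9.0 (24.6%), 1 of 9 at E9.5 (9.58%) and 1 of 5 at E10.5 (1.37%). The label effect in PA2 minus that in PA1 passed in 0 of 29 member tests in limma and in 0 by edgeR, against 0.0163% of all tests in limma. By an unadjusted p under 0.05 in limma, 5 member tests did. These were 2 of 5 at E10.0, where 282 of 18428 genes did, and 3 of 5 at E10.5, where 602 did. G630016G05Rik at E10.5 came nearest (-0.83 ± 0.23, adjusted p = 0.49) and passed with a pseudocount of 5 (-0.31, adjusted p = 0.0429). That a bias passed in wildtype and not under the label is therefore not shown to be a difference between them.

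**Figure D4:**
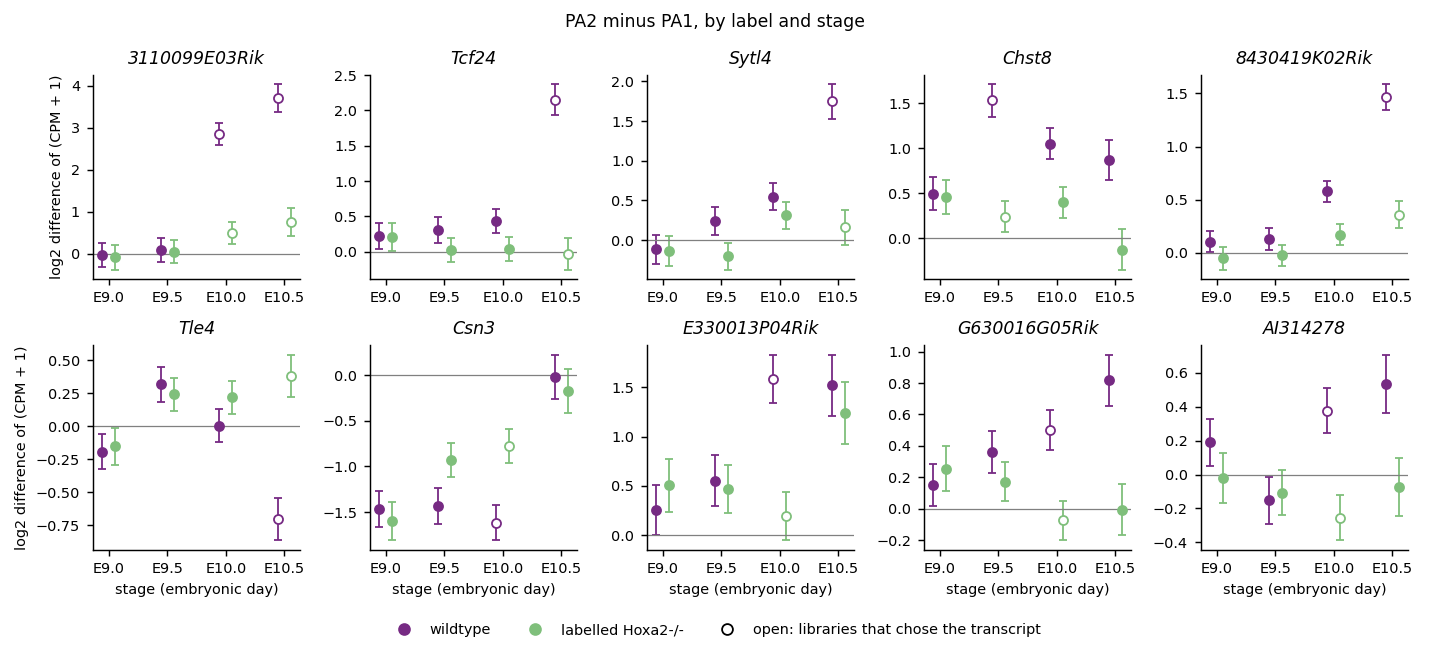
Log2 difference of (CPM + 1), PA2 minus PA1, for each transcript by stage in wildtype (purple) and in embryos labelled Hoxa2-/- (green). Points are fitted differences, bars 1 standard error, and open points mark libraries that chose the transcript. Chst8 in wildtype lies at 0.49, 1.53, 1.05 and 0.87 across the stages, E330013P04Rik lies at 1.52 in wildtype and 1.23 under the label at E10.5, and Csn3 in wildtype lies at -1.43 or below until E10.0 and at -0.02 at E10.5.

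Wildtype stages were compared without E10.0, which lies on the other side of the library division. There 16 of 36 member tests passed, 14 higher and 2 lower at the later stage, against 28% of all tests (13.7% higher, 14.3% lower). Under the label 12 of 46 passed, 11 higher and 1 lower, against 11.4% (5.79% higher, 5.64% lower). These shares weight all stage pairs alike, while the member tests are spread unevenly. In wildtype, 9 member tests per arch compared E9.5 with E9.0, where 1241 (PA1) and 1231 (PA2) of 18428 genes passed. Only 5 members per arch were tested at E10.5 against E9.0, and 4 against E9.5, which limits whose rises could be counted. The 2 wildtype falls are both Csn3 in PA1, and the fall under the label is Chst8 in PA2. Of the 14 rises, 13 belong to the lincRNAs E330013P04Rik, G630016G05Rik and AI314278. In labelled PA1, 4 of 8 member tests passed from E9.5 to E10.0, all higher, against 4.4% of all genes: E330013P04Rik (1.39 ± 0.24, adjusted p = 0.000214), AI314278 (0.57 ± 0.13, adjusted p = 0.00571), Csn3 (0.70 ± 0.19, adjusted p = 0.0191) and G630016G05Rik (0.42 ± 0.13, adjusted p = 0.0396). The last 2 were lost without any one of several libraries: for Csn3 E9.5 replicate 1, 2 or 3 or E10.0 replicate 5 (adjusted p 0.0529 to 0.0952, and 0.0509 by edgeR), for G630016G05Rik E9.5 replicate 1, 2, 3 or 5 or E10.0 replicate 2, 4 or 5 (adjusted p 0.0574 to 0.137). With only the compared groups, those of AI314278 (adjusted p = 0.0698), Csn3 (0.12) and G630016G05Rik (0.162) did not pass, and with a pseudocount of 5 that of G630016G05Rik (0.0772). The rise of G630016G05Rik in labelled PA1 at E10.5 over E9.0 (0.44 ± 0.15, adjusted p = 0.0206) was lost without E9.0 replicate 2 or 3 or E10.5 replicate 1 or 3 (adjusted p 0.0522 to 0.131).

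Over the 68 libraries the levels of the 5 non-coding transcripts and Sytl4 were positively correlated in all 15 pairs, with r of 0.63 to 0.89, and Tcf24 had 0.20 to 0.66 with these 6, highest with 8430419K02Rik. Pearson's r of log2(CPM + 1) between 3110099E03Rik and E330013P04Rik was 0.89, with 8430419K02Rik 0.85, with G630016G05Rik 0.83, with AI314278 0.82 and with Sytl4 0.79. Chst8 and Csn3 had r = -0.70, and Tle4 was negatively correlated with all 9 others (-0.08 to -0.62). The libraries share stage, arch and embryo, members chosen in the same contrast resemble each other for that reason too, and these values are a description. Among the 13117 or 13118 other genes compared, those with a group mean of at least 5 CPM, the most alike was Fap, a membrane protease of mesenchyme, for 3110099E03Rik (r = 0.92). It was Emx2, a homeobox transcription factor, for E330013P04Rik (0.96), Meox1, a homeobox transcription factor, for Chst8 (0.77), Eaf1 for Tle4 (0.83) and Nsg2 for Tcf24 (0.59). Among the 3 most alike to Csn3 were Fam83f (0.79) and Trp63, a transcription factor of stratified epithelium (0.79). For Sytl4, 8430419K02Rik and G630016G05Rik the most alike gene was another member, 3110099E03Rik.

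**Figure D5:**
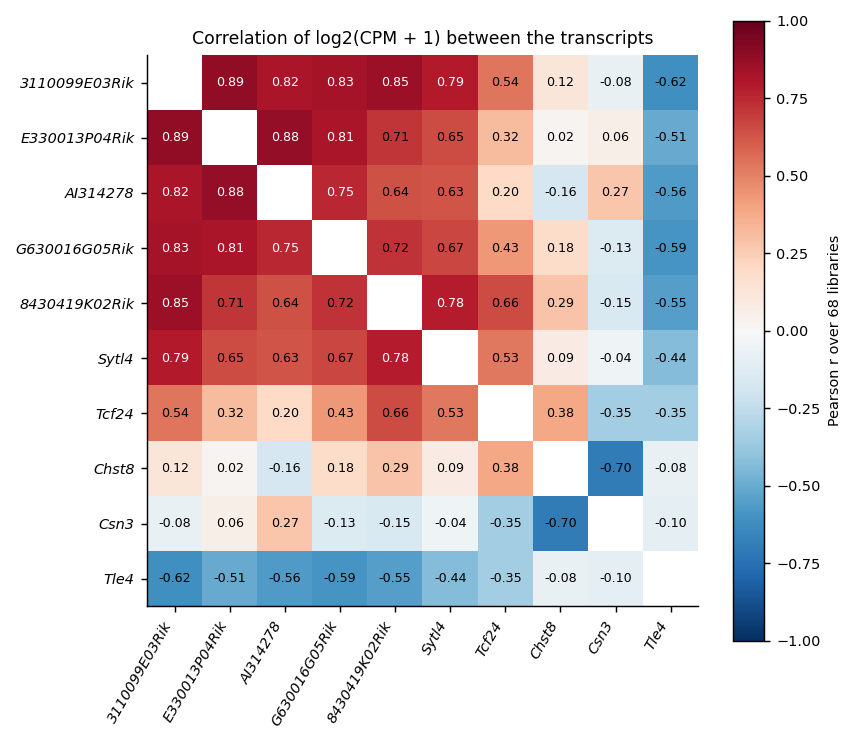
Pearson correlation of log2(CPM + 1) over 68 libraries between each pair of the 10 transcripts, blue for negative and red for positive. The 5 non-coding transcripts and Sytl4 have 0.63 to 0.89 with each other, and Tle4 has negative values with all 9 others.

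Of the cell marker lists, 3 had summed levels that did not overlap between labels in PA2 at E10.5, all higher under the label, a separation that 18.6% of single genes showed in that direction. The summed CPM of 6 neural crest mesenchyme markers ran from 375 to 389 in wildtype and from 479 to 510 under the label, and 2 of the 6 passed, Dlx2 (0.76) and Prrx2 (0.50), against 10.3% of all genes. That of 5 endothelial markers ran from 141 to 152 and from 170 to 209, and 0 passed in limma or by edgeR (1 at an unadjusted p under 0.05). That of 3 heart muscle markers ran from 0.665 to 1.24 and from 1.30 to 2.40, and 0 passed by either tool, nor did any at an unadjusted p under 0.05. Sums overlapped for pharyngeal endoderm (31.2 to 35.9 and 26.8 to 46.2), muscle progenitors (55.0 to 67.4 and 55.7 to 65.0) and neurons (75.1 to 86.3 and 65.0 to 78.2), in each of which 1 marker was lower under the label: Pax9 (-0.81), Myf5 (-0.98) and Tubb3 (-1.60). At E10.0 the crest sum ran from 327 to 391 in wildtype PA2 and from 378 to 504 under the label, and the endothelial sum from 134 to 233 and from 158 to 255.5. The part of these differences in the members' values was not tested. Without the 3 libraries highest in yolk sac markers, a setting added after the data were seen, 4 member tests passed between labels in PA2 and 11 between the wildtype arches.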

How the data were processed

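The deposited table held 1 value per gene and library. The values are a signal, CPM on scaled library sizes, as the authors deposited them, with column totals of 926298 to 1051959. 100% of the deposited values were whole multiples of 1 read (tolerance 0.01 reads), so reads were recovered. Per the submitters' processing notes, bcl2fastq 2.18, TopHat2 2.1.1, R 3.3.2 and mm10 were used; per the labels' protocols, cDNA came from a SMART-seq v4 kit and libraries from Nextera XT. The counter, annotation and strandedness are not given in the sources used here. No molecular identifiers are described. Plain CPM had been assumed when the tests were chosen, and they were kept.

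Symbols and positions came from GENCODE M21 and promoters from RefSeq. Genes with at least 1 CPM in at least 3 libraries (18428) were tested on log2(CPM + 1) with limma 3.58.1 in R 4.3.3, fitting the 16 groups of all 68 libraries together, trended prior variance, two-sided contrasts and Benjamini-Hochberg adjustment over all genes. A contrast sharing any group with the one that chose a member got no p-value. edgeR 4.0.16 (quasi-likelihood) on recovered reads called 1804 genes between labels in PA2 at E10.5, against 1904 by limma, and 11 against 15 at E10.0. Alternatives were 2 pseudocounts (0.25, 5), no filter, a filter at 5, median-of-ratios scaling, only the compared groups, the embryo as a block, edgeR, and each library left out.

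Members, gene lists and tests were chosen with earlier results of these data known. The text names the 10 members, genes of family lists, nearest annotated neighbours and the genes most alike, of which 2 are not reported here. Per the series text, both arches of an embryo share a number. Deviations from group means had a median r of 0.35 over 33 same-embryo pairs (30 above 0.1) and -0.12 over 116 other pairs.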

Additional observations from a re-analysis of the deposited data

Results flagged for a closer look

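Within groups of 4 or 5 libraries, 19 of 120 member groups had a highest or lowest library far from the rest, by the ratio of its gap to the group's range. The cut-off flags about 1 in 20 groups of normally distributed values. That rate does not hold for groups of a few reads, where 1 library above 0 among zeros is always flagged. The count is therefore no measure of an excess. The embryo labelled Hoxa2-/- at E9.5, replicate 4, was highest in PA2 for 3110099E03Rik (2.08 CPM), E330013P04Rik (3.66) and AI314278 (1.08), and in PA1 for E330013P04Rik (2.28). At E9.5 the other single high values were 3110099E03Rik in wildtype PA2 replicate 5 (1.30 CPM), Tcf24 in labelled PA1 replicate 3 (1.06) and Sytl4 in wildtype PA1 replicate 2 (2.68).

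At E9.0 the high values were Csn3 in wildtype PA2 replicate 4 (1.60 CPM), 3110099E03Rik in wildtype PA1 replicate 3 (0.256) and labelled PA2 replicate 4 (0.0923, a single read), and E330013P04Rik in labelled PA1 replicate 3 (0.299). Sytl4 was low in wildtype PA1 replicate 2 (1.25 CPM), 8430419K02Rik was at 0 in labelled PA2 replicate 4, and AI314278 was at 0 in labelled PA2 replicate 3, the library with the second highest yolk sac marker sum (138 CPM). At E10.0 the high values were E330013P04Rik in labelled PA2 replicate 2 (6.87 CPM), Sytl4 (3.96) and 8430419K02Rik (0.440) in labelled PA1 replicate 2, Chst8 in wildtype PA1 replicate 4 (1.00) and Tcf24 in wildtype PA1 replicate 2 (0.0785, a single read).

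Tle4 at E10.5 went in opposite directions in the arches, 0.80 higher under the label in PA2 and -0.28 in PA1 on the log2 scale, with no overlap between labels in either arch. These libraries chose Tle4, so the difference was not tested here.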

How the results depend on the processing

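Counts of member tests passed stayed within 1.5 times the reported one under most settings. A filter at 5 CPM, which removes low transcripts, gave 4 between the wildtype arches (10 reported), 0 between labels in PA2 (3), 8 over wildtype stages (16) and 6 over labelled stages (12). Between labels in PA2, 6 passed with a pseudocount of 5 and 5 without a filter. Between labels in PA1, 1 passed when only the compared groups were fitted (3 reported), and for the difference of label effects 1 passed with a pseudocount of 5 (0 reported). The cause of these last 4 was not tested. With the embryo as a replicate block, 13 passed between wildtype arches, 4 between labelled arches, 3 between labels in PA2, 3 in PA1, 0 for the difference of label effects, 17 over wildtype and 12 over labelled stages. The calls it added are given beside Chst8, Tle4, Csn3, E330013P04Rik and AI314278, and it removed none.

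Leaving out 1 library at a time gave 8 to 10 between wildtype arches, 2 to 4 between labelled arches, 2 to 4 between labels in PA2, 2 to 3 in PA1, 0 to 0 for the difference of label effects, 15 to 17 over wildtype and 10 to 13 over labelled stages. Over 111 single member values and all other settings, 834 of 946 counted as unchanged, 26 lost and 14 gained a call, 72 moved and 0 reversed. A tested value counted as unchanged if its call was kept, whatever its size. A value from choosing libraries counted as moved if it shifted by more than the replicate spread. A reversal was looked for only where the reported adjusted p was under 0.05. Median-of-ratios scaling shifted the median gene by at most 0.0162 in the comparisons between labels or arches. Low depth limits Tcf24, 8430419K02Rik and the early values of the lincRNAs, many of which rest on 3 reads or fewer, and differences between labels hold the library division as well at all stages except E10.0.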
